A study of Homo sapiens with 16 samples.

Results

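The genes described are 10 members of the BCL2 family, chosen by name from the 60676 genes of the count table: the anti-apoptotic members BCL2, BCL2L1 and MCL1, the effectors BAX and BAK1, and the BH3-only members BCL2L11, BBC3, PMAIP1, BID and BIK. All 10 were in the table, and all 10 passed the filter on low counts. RNA-seq was made from HCT116 cells, an established human colorectal carcinoma line, in 16 libraries of 8 groups. The groups were, for cells carrying an shRNA against NELFE (shNELFE), EPZ-5676 + HMBA, HMBA, EPZ-5676 and DMSO, and, for cells carrying a control shRNA (shCTL), EPZ-5676 + HMBA, HMBA, EPZ-5676 and DMSO. All groups share the HCT116 background and an shRNA, and each has 2 libraries, numbered 1 and 2. NELFE is a subunit of the negative elongation factor NELF, a complex that keeps RNA polymerase II paused close to promoters. EPZ-5676 (pinometostat) inhibits the histone methyltransferase DOT1L, and HMBA (hexamethylene bisacetamide) activates P-TEFb, a kinase of transcription elongation, and induces HEXIM1. The labels give neither the shRNA sequences nor doses or times, and whether libraries were grown as separate cultures is not stated. The p-values thus reflect the spread of the sequenced libraries alone around a fit of additive effects, which may be technical. That spread also holds any departure from additive effects.

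The BCL2 family decides whether the outer mitochondrial membrane stays intact. BAX and BAK1 form the pores that let cytochrome c out and start the caspases, the anti-apoptotic proteins bind and restrain them, and BH3-only proteins either occupy the anti-apoptotic proteins or activate the effectors directly. Several members make isoforms with other activities, such as the short pro-apoptotic form of BCL2L1, and a count per gene does not separate them. Many of these proteins are also set by turnover, MCL1 above all, which mRNA levels do not show.

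Of the 16 libraries, 9 share an expression profile: the 8 numbered 2 and replicate 1 of shNELFE EPZ-5676 + HMBA. They had 13428893 to 17867037 counts each, and between them Pearson's r across genes was 0.92 to 0.99 for log2 CPM (counts scaled to library size). The other 7, with 19626522 to 21319666 counts, had an r of 0.681 to 0.781 with the 9 and fell into 3 profiles that do not follow the labels. NELFE ranged from 13.0 to 21.6 CPM in the 5 shNELFE libraries of the 9 and from 67.9 to 81.0 CPM in the 4 shCTL libraries. In the 7, on totals scaled over all 16, NELFE was 81.8 to 144 CPM in the 3 libraries labelled shNELFE and 99.8 to 281 CPM in the 4 labelled shCTL. HEXIM1 was 338 to 385 CPM in the 5 libraries with HMBA and 66.8 to 81.6 CPM in the 4 without it among the 9, but 46.8 to 73.8 CPM with an HMBA label and 42.9 to 66.6 CPM without one among the 7, again on totals scaled over all 16. In the 9, 7 of 8 epithelial markers reached 1 CPM in every library, VIL1 being the exception, and all 6 haematopoietic markers were under 1 CPM throughout. The results below therefore come from the 9 libraries unless all 16 are named, and the members in the 7 are given at the end. Within the 9, shNELFE EPZ-5676 + HMBA has 2 libraries and the other 7 groups have 1 each, so the arms compared mix the other treatments, and an SD over an arm includes them.

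Upstream sequences are printed for the 3 members that HMBA moved most (PMAIP1 and BCL2L11, which rose, and BCL2L1, which fell) and for BAX, which did not pass the test, so that their make-up can be set side by side. They are the parts of the 250 bases before the annotated start that lie outside every annotated exon, in RefSeq's GRCh38.p14, written 5′ to 3′ along the gene, with matches on either strand to 4 motifs in capitals. These 4 are TATAAA (the TATA box), CCAAT (the CAAT box), GGGCGG (the GC box core) and CACGTG (the E-box core).
PMAIP1, chr18:59899746-59899947, plus strand: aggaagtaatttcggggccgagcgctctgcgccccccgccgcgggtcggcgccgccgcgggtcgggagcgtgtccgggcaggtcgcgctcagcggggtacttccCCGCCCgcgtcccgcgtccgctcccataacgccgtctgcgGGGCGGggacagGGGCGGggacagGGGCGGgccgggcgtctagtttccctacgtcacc
BCL2L11, chr2:111120664-111120913, plus strand: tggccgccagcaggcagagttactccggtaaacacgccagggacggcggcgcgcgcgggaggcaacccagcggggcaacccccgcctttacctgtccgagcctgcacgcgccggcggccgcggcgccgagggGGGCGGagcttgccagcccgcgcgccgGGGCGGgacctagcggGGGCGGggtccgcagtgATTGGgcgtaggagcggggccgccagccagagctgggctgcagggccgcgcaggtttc
BCL2L1, chr20:31723990-31724213, minus strand: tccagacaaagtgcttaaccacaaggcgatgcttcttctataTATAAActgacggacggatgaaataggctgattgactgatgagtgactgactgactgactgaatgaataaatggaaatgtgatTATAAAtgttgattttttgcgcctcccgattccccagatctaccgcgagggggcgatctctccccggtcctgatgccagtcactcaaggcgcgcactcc
BAX, chr19:48954625-48954814, plus strand: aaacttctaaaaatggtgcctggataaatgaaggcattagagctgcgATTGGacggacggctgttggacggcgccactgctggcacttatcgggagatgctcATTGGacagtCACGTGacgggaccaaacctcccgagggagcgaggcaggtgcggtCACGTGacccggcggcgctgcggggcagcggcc

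RefSeq windows of 250 bases before to 50 after a start matched 8 of the 10 members, with 13 windows in all, and MCL1 and BIK had none. The PMAIP1 window held GGGCGG, the core of the GC box, with first bases at -146, -106, -94 and -82 from the start base. The BCL2L11 window held GGGCGG at -118, -91 and -75 and CCAAT at -58. GGGCGG was in 45.0% and CCAAT in 34.6% of the 35116 promoter windows searched. The BCL2L1 window printed, from the more distal of its 2 annotated starts, held TATAAA at -208 and -125, a motif in 11.5% of all windows, and its nearer start had GGGCGG at -5. The BAX window held 4 copies of CACGTG, the E-box core, at -138, -93, -45 and -14, a motif in 7.26% of all windows. It also held CCAAT at -203 and -148 and GGGCGG at -52 and 9, and the matches from -52 on lie outside the stretch printed. These are matches of letters in these windows and say nothing about binding.

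Levels between members were compared as CPM per kilobase of annotated exon, over the 9 libraries. By median, the order was PMAIP1 (76.4 CPM per kilobase), MCL1 (55.6), BCL2L1 (24.0), BAK1 (13.8), BCL2L11 (11.2), BAX (11.2), BID (9.12), BIK (8.86), BBC3 (1.30) and BCL2 (0.220). The ranges of PMAIP1 (29.6 to 134 CPM per kilobase), MCL1 (43.2 to 66.7) and BCL2L1 (16.8 to 77.0) overlap. BAK1 (12.3 to 15.7) lay below all 3 of these, and from BAK1 on each member overlapped its next neighbour in the order down to BIK. BBC3 (0.953 to 1.96) lay below all of these and above BCL2 (0.191 to 0.300). The founding member of the family was thus the least abundant mRNA of the 10 in each of the 9 libraries, with 29 to 60 reads per library. The most abundant was BCL2L1 in 3 of the 4 libraries without HMBA, and PMAIP1 in shNELFE DMSO and in all 5 libraries with HMBA.

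**Figure D1:**
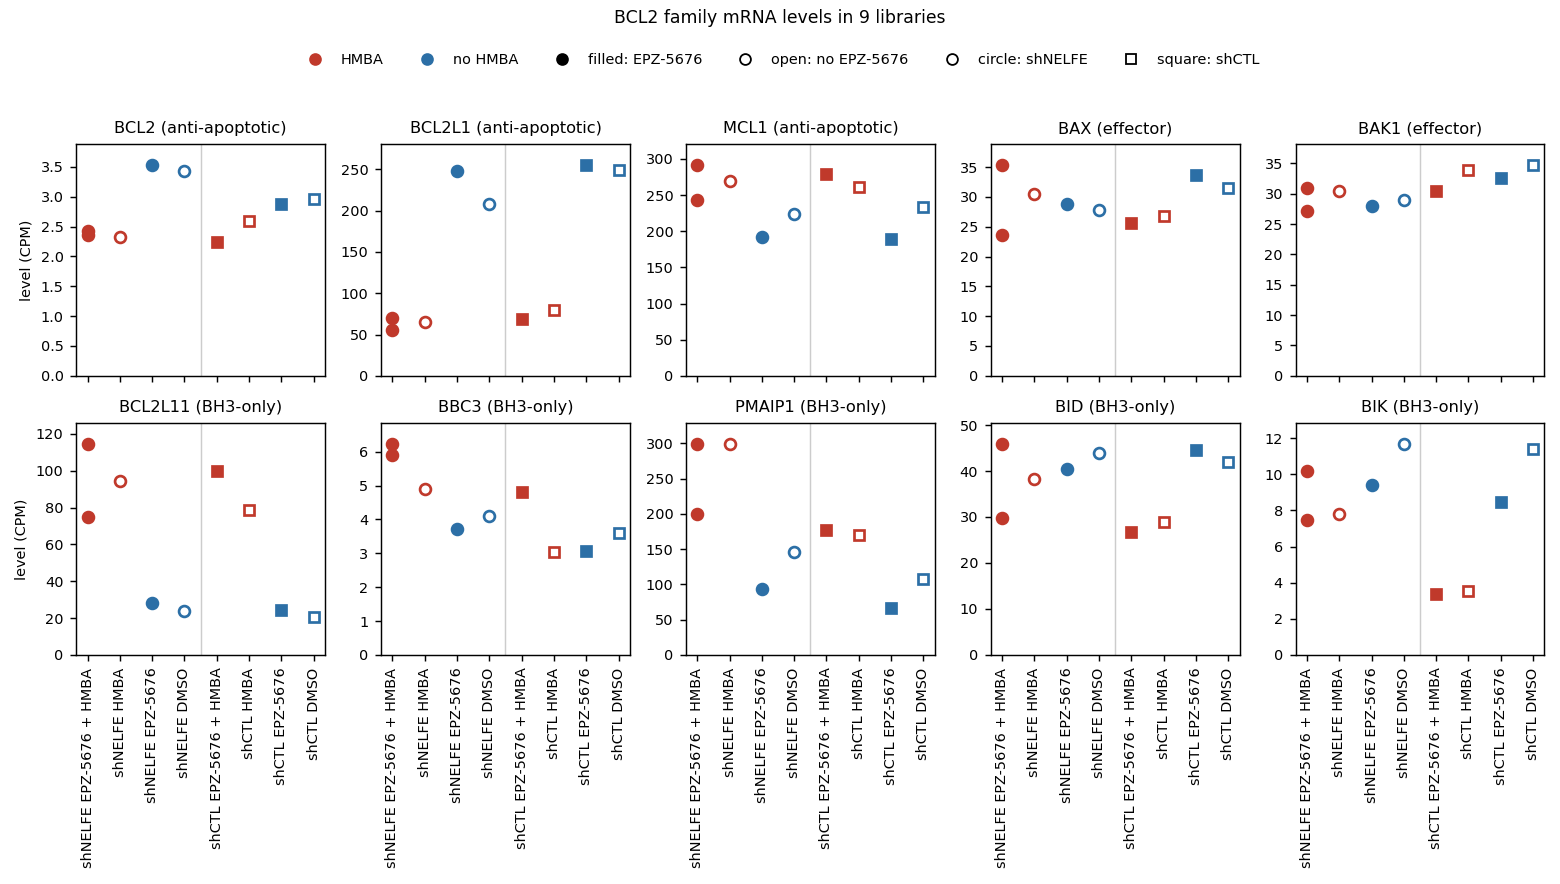
Level of each member (y axis, CPM, from 0) in each of the 9 libraries, by group (x axis). Red points are libraries with HMBA and blue points without, filled points have EPZ-5676, circles are shNELFE and squares shCTL. BCL2L1 is 55.6 to 79.5 CPM with HMBA and 208 to 255 CPM without it, and BCL2L11 is 74.8 to 114 CPM with HMBA and 20.8 to 28.1 CPM without it.

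HMBA was the factor for which members of the family passed the test. With it, BCL2L1 mRNA fell 3.51-fold, BCL2L11 mRNA rose 3.75-fold and PMAIP1 mRNA rose 2.22-fold, while BAX and BAK1, the pore formers, did not pass the test. In all, 7 of the 10 members passed, 3 higher and 4 lower, under edgeR's quasi-likelihood test with Benjamini-Hochberg adjustment at 0.05 over 14912 genes. By role, 1 of 3 anti-apoptotic members was higher and 2 were lower, 0 of 2 effectors passed, and of 5 BH3-only members 2 were higher and 2 lower. HMBA changed much of the transcriptome: 63.0% of all genes tested passed, 31.0% higher and 32.0% lower, so the share of members called is near the background. The median log2 fold change was -0.05 over the 10 members and 0.02 over all genes. Mitochondrial genes took 8.87% to 12.2% of counts with HMBA and 6.12% to 6.90% without it, and the summed level of the 8 mesenchymal markers was 63.0 to 104 CPM with HMBA and 34.2 to 64.3 CPM without it, with CDH2, COL1A2, COL3A1 and DCN under 1 CPM throughout. Their part in these results was not tested. In bulk RNA, fewer cells of a kind and less RNA per cell cannot be told apart.

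**Figure D2:**
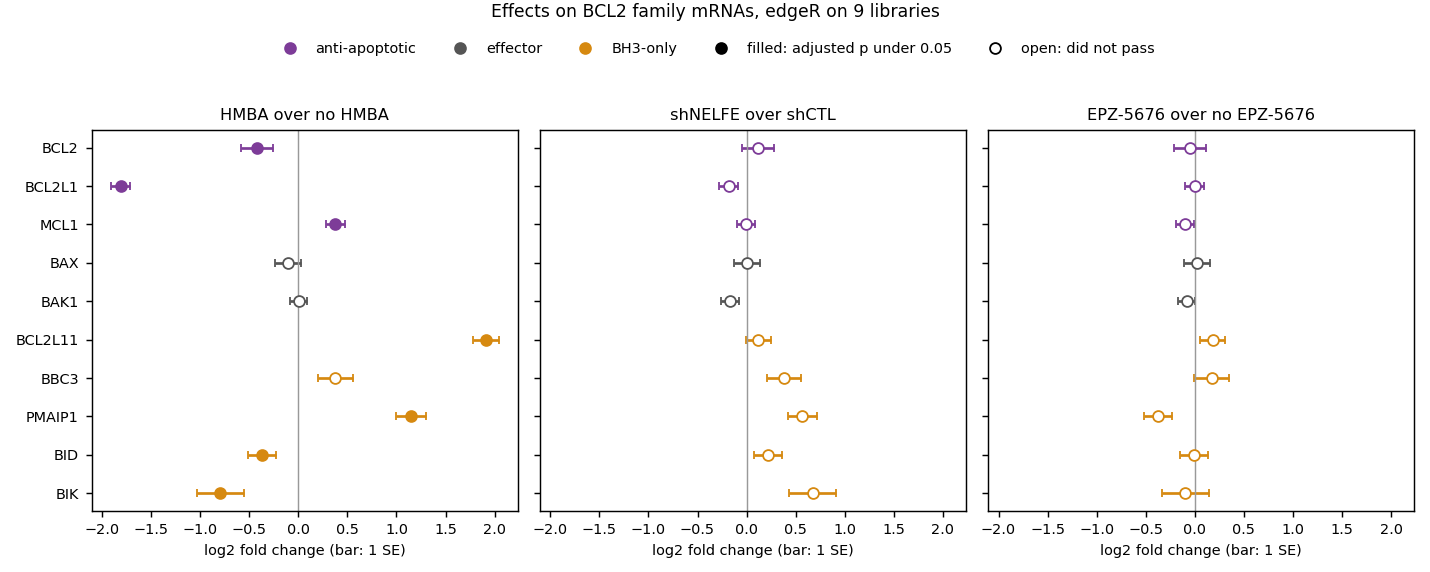
Log2 fold change of each member (x axis, bar 1 SE) for HMBA, shNELFE and EPZ-5676 in edgeR's fit of the 9 libraries, with members by role down the page. Filled points passed an adjusted p of 0.05: 7 members for HMBA and 0 for shNELFE and EPZ-5676.

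Among the anti-apoptotic members, BCL2L1, which encodes BCL-XL, changed most. It stood at 55.6 and 69.9 CPM in the 2 shNELFE EPZ-5676 + HMBA libraries, 65.3 CPM in shNELFE HMBA, 68.2 CPM in shCTL EPZ-5676 + HMBA and 79.5 CPM in shCTL HMBA. Without HMBA it stood at 248 CPM in shNELFE EPZ-5676, 208 CPM in shNELFE DMSO, 255 CPM in shCTL EPZ-5676 and 249 CPM in shCTL DMSO. The libraries with HMBA all lay below those without it, which held for 26.2% of all genes. The means were 67.7 ± 8.60 CPM with HMBA (SD, n = 5) and 240 ± 21.6 CPM without it (SD, n = 4), and the log2 fold change was -1.81 (SE 0.099, edgeR adjusted p = 1.13e-07). BCL2L1 was lower with HMBA in 4 of 4 pairs of libraries that differ only in HMBA, by a log2 of -2.15 to -1.65.

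MCL1, the short-lived member that restrains BAK1 and binds the PMAIP1 product NOXA, went the other way by a small amount. MCL1 stood at 243 and 292 CPM in shNELFE EPZ-5676 + HMBA, 269 CPM in shNELFE HMBA, 279 CPM in shCTL EPZ-5676 + HMBA and 261 CPM in shCTL HMBA. Without HMBA it stood at 191 CPM in shNELFE EPZ-5676, 223 CPM in shNELFE DMSO, 189 CPM in shCTL EPZ-5676 and 233 CPM in shCTL DMSO. The groups did not overlap, as for 23.9% of all genes in this direction, and the log2 fold change was 0.38 (SE 0.094, edgeR adjusted p = 0.00475). On library totals without TMM scaling, where the median gene shifts to a log2 fold change of -0.24, MCL1 was at 0.12 and no longer passed (edgeR adjusted p = 0.365). BCL2 averaged 2.39 ± 0.128 CPM with HMBA (SD, n = 5) and 3.20 ± 0.329 CPM without it (SD, n = 4), a log2 fold change of -0.42 (SE 0.16, edgeR adjusted p = 0.0397). That call was lost when any of 8 of the 9 libraries was left out, and it held without replicate 1 of shNELFE EPZ-5676 + HMBA (edgeR adjusted p = 0.0495).

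Neither effector passed the test for HMBA. BAX averaged 28.4 ± 4.62 CPM with HMBA (SD, n = 5) and 30.5 ± 2.63 CPM without it (SD, n = 4), with a log2 fold change of -0.10 (SE 0.13, edgeR adjusted p = 0.515). BAK1 averaged 30.6 ± 2.38 CPM with HMBA (SD, n = 5) and 31.1 ± 3.16 CPM without it (SD, n = 4), with a log2 fold change of 0.0059 (SE 0.087, edgeR adjusted p = 0.957). On unscaled totals both passed as lower, BAX at -0.37 (edgeR adjusted p = 0.0127) and BAK1 at -0.26 (edgeR adjusted p = 0.0202), beside the median gene at -0.24.

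Of the BH3-only members, BCL2L11, which encodes BIM, rose most. It stood at 74.8 and 114 CPM in shNELFE EPZ-5676 + HMBA, 94.3 CPM in shNELFE HMBA, 100 CPM in shCTL EPZ-5676 + HMBA and 78.6 CPM in shCTL HMBA. Without HMBA it stood at 28.1 CPM in shNELFE EPZ-5676, 23.7 CPM in shNELFE DMSO, 24.2 CPM in shCTL EPZ-5676 and 20.8 CPM in shCTL DMSO. Every library with HMBA lay above every library without it, and the log2 fold change was 1.91 (SE 0.13, edgeR adjusted p = 5.11e-07), with 1.92 to 2.05 in the 4 pairs. The lncRNA gene MIR4435-2HG lies on the opposite strand and overlaps BCL2L11 exons, and the strand setting of the counts is not given in the sources used here. MIR4435-2HG itself was lower with HMBA, at 12.99 ± 1.122 CPM (SD, n = 5) and 20.5 ± 3.504 CPM without it (SD, n = 4), with a log2 fold change of -0.68 (SE 0.12, edgeR adjusted p = 0.000663).

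PMAIP1, which encodes NOXA, spread more than BCL2L11. It stood at 200.3 and 299 CPM in shNELFE EPZ-5676 + HMBA, 299 CPM in shNELFE HMBA, 177 CPM in shCTL EPZ-5676 + HMBA and 171 CPM in shCTL HMBA. Without HMBA it stood at 93.0 CPM in shNELFE EPZ-5676, 146 CPM in shNELFE DMSO, 66.2 CPM in shCTL EPZ-5676 and 108 CPM in shCTL DMSO. The groups did not overlap, and the shNELFE libraries were the higher ones within each treatment. Its log2 fold change for HMBA was 1.15 (SE 0.15, edgeR adjusted p = 6.41e-05), with 0.66 to 1.69 in the 4 pairs. The calls of BCL2L1, MCL1, BCL2L11 and PMAIP1 held in 9 of 9 fits that each left out 1 library.

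BIK, a BH3-only protein of the endoplasmic reticulum, was lower with HMBA, at 7.47 and 10.2 CPM in shNELFE EPZ-5676 + HMBA, 7.80 CPM in shNELFE HMBA, 3.40 CPM in shCTL EPZ-5676 + HMBA and 3.55 CPM in shCTL HMBA. Without HMBA it stood at 9.42 CPM in shNELFE EPZ-5676, 11.7 CPM in shNELFE DMSO, 8.44 CPM in shCTL EPZ-5676 and 11.4 CPM in shCTL DMSO. The groups overlapped through 1 shNELFE library with HMBA, while the 2 shCTL libraries with HMBA were the lowest of the 9. The log2 fold change was -0.80 (SE 0.24, edgeR adjusted p = 0.0133), and without shCTL HMBA replicate 2 it was -0.60 and did not pass (edgeR adjusted p = 0.0717). BID, whose protein is cut by caspase-8 into an activator of BAX and BAK1, averaged 33.9 ± 7.98 CPM with HMBA (SD, n = 5) and 42.8 ± 1.85 CPM without it (SD, n = 4). Its log2 fold change was -0.37 (SE 0.14, edgeR adjusted p = 0.0414), and the call was lost in 7 of 9 fits that left out 1 library and under RLE scaling (edgeR adjusted p = 0.0502). BBC3, which encodes PUMA, averaged 4.98 ± 1.25 CPM with HMBA (SD, n = 5) and 3.63 ± 0.427 CPM without it (SD, n = 4), and its log2 fold change of 0.38 (SE 0.18) did not pass (edgeR adjusted p = 0.0827). It passed without shCTL HMBA replicate 2 (edgeR adjusted p = 0.0275) or without shCTL DMSO replicate 2 (edgeR adjusted p = 0.0478).

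Setting pro-apoptotic against anti-apoptotic members inside each library removes library scaling. The ratio of BCL2L11 to BCL2L1 counts was 0.989 to 2.06 in the 5 libraries with HMBA and 0.0833 to 0.114 in the 4 without it. The mean log2 ratio was higher with HMBA by 3.76, and the ranges did not overlap. For BBC3 to BCL2L1, libraries with HMBA had ratios of 0.0381 to 0.106 and those without it had 0.0121 to 0.0198, and these ranges too were separate. BBC3 itself did not pass, and its levels overlapped (3.03 to 6.23 CPM with HMBA, 3.08 to 4.12 CPM without it), while the shared denominator BCL2L1 fell. BID and BIK, which were called lower, are in none of the ratios. For PMAIP1 to MCL1, libraries with HMBA had 0.634 to 1.11 and those without it 0.351 to 0.654, which overlap. For BAX to BCL2, libraries with HMBA had 10 to 14.6 and those without it 8.10 to 11.7, which overlap too. Summed as CPM per kilobase, the 3 anti-apoptotic members made up 29.8% to 40.2% of the 10 members' total with HMBA and 49.6% to 59.8% without it. PMAIP1 weighs heavily in these sums, with 134 of the pro-apoptotic 192 CPM per kilobase in shNELFE HMBA and 48.4 of 102 in shCTL DMSO (replicate 2). Of the 7 pro-apoptotic members, 2 were called higher and 2 lower with HMBA, with a median log2 fold change of 0.0059. These values rest on the members tested above and are given as a description, with no test.

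**Figure D3:**
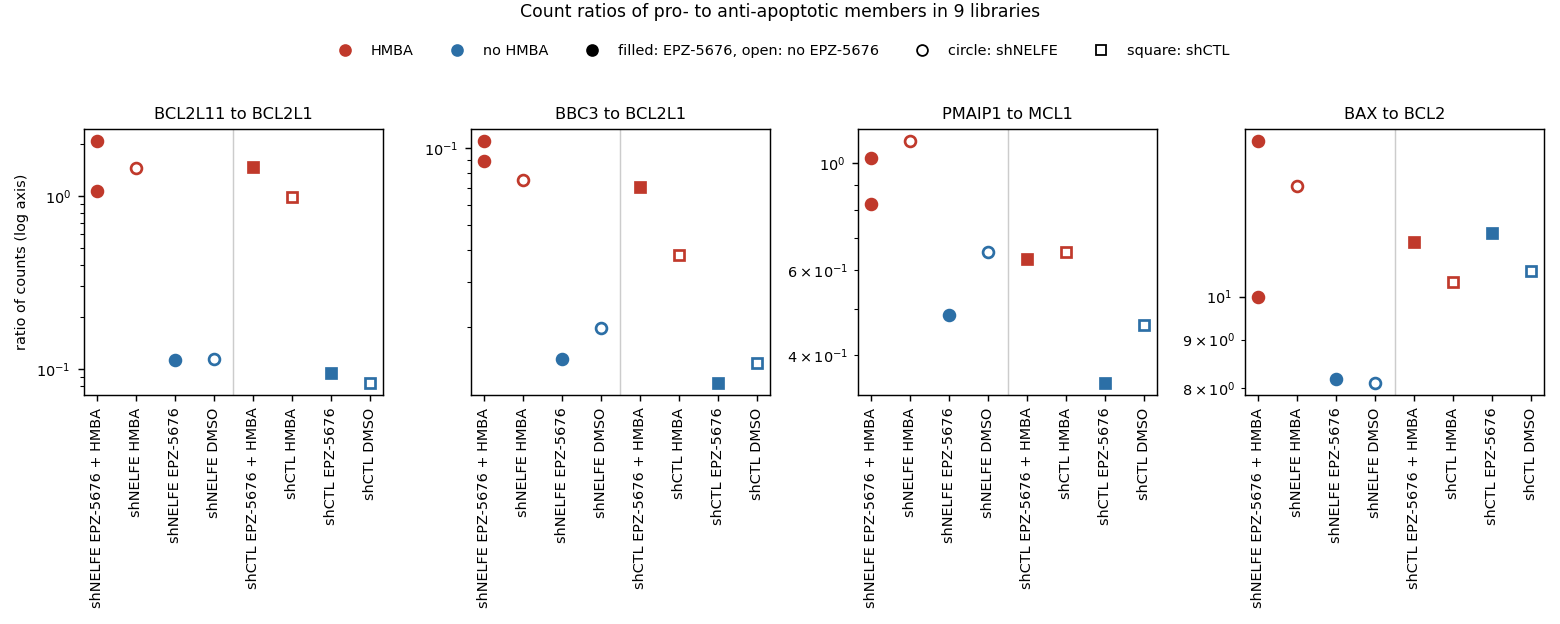
Ratio of read counts of a pro-apoptotic to an anti-apoptotic member (y axis, log scale) in each of the 9 libraries, by group (x axis), with red points for HMBA and blue points for no HMBA. BCL2L11 to BCL2L1 and BBC3 to BCL2L1 separate the libraries with HMBA from those without it, and the other ratios overlap.

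The comparison of shNELFE with shCTL asks whether the family depends on NELFE. Over the 9 libraries, none of the 10 members passed with edgeR (0 of 10, where 2.37% of all genes passed). At an unadjusted p under 0.05 were 3 members, PMAIP1, BIK and BBC3, beside 2899 of the 14912 genes tested. PMAIP1 averaged 207 ± 91.7 CPM in shNELFE libraries (SD, n = 5) and 130 ± 52.8 CPM in shCTL libraries (SD, n = 4), a log2 fold change of 0.57 (SE 0.15, edgeR adjusted p = 0.075). Between libraries that differ only in the shRNA, PMAIP1 was higher with shNELFE in 4 of 4 pairs, by a log2 of 0.43 to 0.81. Without replicate 1 of shNELFE EPZ-5676 + HMBA its log2 fold change was 0.62 and passed (edgeR adjusted p = 0.00431), in the only 1 of 9 such fits where it did. The number of genes called in all, 353 with the 9 libraries, was 66 to 1940 when a library was left out, highest without that one. DESeq2 on the same genes also called PMAIP1, at 0.58 (DESeq2 adjusted p = 0.0097). BIK had a log2 fold change of 0.67 (SE 0.24, edgeR adjusted p = 0.167) and BBC3 of 0.38 (SE 0.17, edgeR adjusted p = 0.257). BCL2L11 was at 0.12 (SE 0.13, edgeR adjusted p = 0.638). It was positive in 4 of 4 pairs, as were BIK and BBC3, while BCL2L1 and BAK1 were negative in 4 of 4. How many of all genes kept the same sign in 4 of 4 pairs was not counted. BCL2L11 passed in 1 of 9 fits that left out 1 library, the fit without replicate 1 of shNELFE EPZ-5676 + HMBA (0.22, edgeR adjusted p = 0.0391). The anti-apoptotic members and effectors lay between -0.18 and 0.12.

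The comparison of EPZ-5676 with its absence asks whether the family depends on DOT1L activity. None of the 10 members passed with edgeR (0 of 10, where 0.201% of all genes passed). At an unadjusted p under 0.05 was 1 member, beside 1695 of the 14912 genes tested. This was PMAIP1, with a log2 fold change of -0.37 (SE 0.15, edgeR adjusted p = 0.366). Without HMBA it stood at 93.0 CPM in shNELFE EPZ-5676 and 146 CPM in shNELFE DMSO, and at 66.2 CPM in shCTL EPZ-5676 and 108 CPM in shCTL DMSO. With HMBA the replicate 2 libraries stood at 299 CPM in shNELFE EPZ-5676 + HMBA and 299 CPM in shNELFE HMBA, and at 177 CPM in shCTL EPZ-5676 + HMBA and 171 CPM in shCTL HMBA. The difference between these EPZ-5676 effects, as a product term, was a log2 of 0.56 (SE 0.26) and did not pass (edgeR adjusted p = 1). BCL2L11 was slightly higher with EPZ-5676 in 4 of 4 pairs, with 0.18 (SE 0.13, edgeR adjusted p = 0.661), while BIK and BAK1 were lower in 4 of 4. Here too, the share of all genes with the same sign in 4 of 4 pairs was not counted. BCL2L11 passed in 1 of 9 fits that left out 1 library, the fit without replicate 1 of shNELFE EPZ-5676 + HMBA (0.28, edgeR adjusted p = 0.0281). The number of genes called for EPZ-5676 was 30 with the 9 libraries and 1 (without shNELFE HMBA replicate 2) to 563 (without that library) when a library was left out.

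Whether the shRNA changes the HMBA response was tested with a product term, which 0 of the 10 members passed, where 0.0134% of all genes did. BIK came nearest among the members. Its log2 fold change for HMBA was -0.28 (SE 0.20, edgeR adjusted p = 0.27) in shNELFE libraries and -1.50 (SE 0.24, edgeR adjusted p = 0.000753) in shCTL libraries. These effects differed by 1.23 (SE 0.31), which did not pass (edgeR adjusted p = 0.879). Seen from the other side, the log2 fold change of BIK for shNELFE was 1.32 (SE 0.23) among libraries with HMBA, which passed (edgeR adjusted p = 0.0365), and 0.091 (SE 0.21, edgeR adjusted p = 0.95) among those without it. The share of all genes that passed within shRNA or HMBA arms was not counted, so these calls have no background beside them. BIK in the replicate 2 libraries with HMBA was 7.47 CPM in shNELFE EPZ-5676 + HMBA and 3.40 CPM in shCTL EPZ-5676 + HMBA, and 7.80 CPM in shNELFE HMBA and 3.55 CPM in shCTL HMBA. Without HMBA it was 9.42 CPM in shNELFE EPZ-5676 and 8.44 CPM in shCTL EPZ-5676, and 11.7 CPM in shNELFE DMSO and 11.4 CPM in shCTL DMSO. BIK counts behind these levels were 48 to 204 reads per library. BCL2L1 and BCL2L11 had HMBA responses of -1.84 and 1.84 in shNELFE libraries and -1.77 and 1.99 in shCTL libraries. For HMBA with EPZ-5676 and for EPZ-5676 with shNELFE no gene passed with edgeR. Of the 14912 genes tested, 385 and 114 had an unadjusted p under 0.05, and DESeq2 called 1 and 3. With 2 libraries in only 1 group of the 9, a lack of calls for a product term does not show equal effects.

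Other genes of the cell death pathway were read from named lists, whose counts are to be read beside the 31.0% of all genes tested that were higher with HMBA and the 32.0% that were lower. Of the other BCL2 family genes, 3 of 8 tested were higher with HMBA and 3 lower. BCL2L2, the anti-apoptotic BCL-W, fell to 16.01 ± 1.47 CPM with HMBA (SD, n = 5), against 40.5 ± 2.85 CPM without it (SD, n = 4), a log2 fold change of -1.34 (edgeR adjusted p = 2.71e-07). BOK, an effector-like member, had a log2 fold change of -2.01 (edgeR adjusted p = 3.01e-07). Among apoptosome genes and caspases 3 of 9 were higher and 4 lower, with CASP2, an initiator-type caspase, at a log2 fold change of -1.38. Of the inhibitor of apoptosis genes and their antagonists 2 of 9 were higher and 6 lower, with SEPTIN4, one product of which antagonises XIAP, at 2.68 and BIRC3, which encodes cIAP2, at -1.49 on the log2 scale.

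Of the death receptor genes and adaptors tested, 2 of 10 were higher with HMBA and 5 lower, where 31.0% of all genes were higher and 32.0% lower. CFLAR, the inhibitor of caspase-8, fell to 7.07 ± 0.979 CPM with HMBA (SD, n = 5), against 39.0 ± 1.23 CPM without it (SD, n = 4), while TNFRSF10D, a decoy receptor for TRAIL, rose by a log2 of 1.93. Of the mitochondrial partners of BAX and BAK, 1 of 8 was higher (VDAC2, the outer membrane channel, at 0.46) and 1 lower (MFN1, a mitofusin, at -0.40). Of the regulators of MCL1 turnover 5 of 8 were higher, among them BTRC, an F-box protein, at 0.53, and 1 was lower, USP13, a deubiquitinase, at -1.06. Transcription factors of BH3-only genes were higher in 6 of 10 and lower in 1, with JUN at 1.79 and TP73 at -1.90. With HMBA, SESN2, a stress-induced sestrin, was at 2.99 and CDKN1A, the cell cycle inhibitor p21, at 2.72, whereas MDM2, an E3 ubiquitin ligase, was lower at -0.26 (edgeR adjusted p = 0.0459). These 3 are from 1 list of 12 genes, of which 9 were higher and 2 lower, with a median log2 fold change of 0.86 beside 0.02 over all genes. For shNELFE, CDKN1A (0.85, edgeR adjusted p = 0.00411) and BTG2, an antiproliferative gene (1.00, edgeR adjusted p = 0.00447), were higher. For EPZ-5676, 0 genes of these cell death lists passed.

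Over the 9 libraries, log2 CPM of BCL2L1 and BCL2L11 ran against each other with a Pearson r of -0.986, and BCL2L1 and PMAIP1 with -0.893. BID and BIK had an r of 0.879. The pairs did not follow the roles throughout. The anti-apoptotic MCL1 had an r of 0.893 with PMAIP1, 0.851 with BCL2L11 and -0.886 with BCL2L1. These values describe libraries that share the HMBA contrast. Of 10574 genes averaging at least 5 CPM, the closest to BCL2L1 were TLCD3A (0.997), THAP4 (0.997) and UCK2 (0.996), and the closest to PMAIP1 were TXNDC16 (0.966), BAZ1A (0.965) and C14orf132 (0.9604).

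In the 7 libraries that stand apart, several members lay outside the whole range of the 9, with levels here on totals scaled over all 16. How many of all genes did so was not counted, and the 7 had an r of only 0.681 to 0.781 with the 9. PMAIP1 was 1.23 to 7.46 CPM in the 7 and 64.1 to 296 CPM in the 9. BAX was 69.6 to 144 CPM in the 7 and 23.4 to 34.5 CPM in the 9, and BAK1 was 48.9 to 81.7 CPM in the 7 and 26.9 to 34.3 CPM in the 9. BCL2 was 170 and 188 CPM in shNELFE DMSO replicate 1 and shCTL HMBA replicate 1, 3.68 to 5.68 CPM in the other 5 of the 7, and 2.24 to 3.41 CPM in the 9. The profile that BCL2 marks thus joins libraries of different shRNA and treatment labels. BCL2L1 was 118 to 221 CPM in the 7 and 54.9 to 247 CPM in the 9, and the 7 lay above every library with HMBA of the 9. With all 16 libraries fitted together, 0 members passed for HMBA. There BCL2L1 had a log2 fold change of -0.996 (SE 0.28, edgeR adjusted p = 0.225), BCL2L11 of 1.40 (SE 0.34, edgeR adjusted p = 0.196) and PMAIP1 of 1.39 (SE 1.22, edgeR adjusted p = 0.813). The same fit called 0 genes in all for HMBA, with 1641 at an unadjusted p under 0.05.

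**Figure D4:**
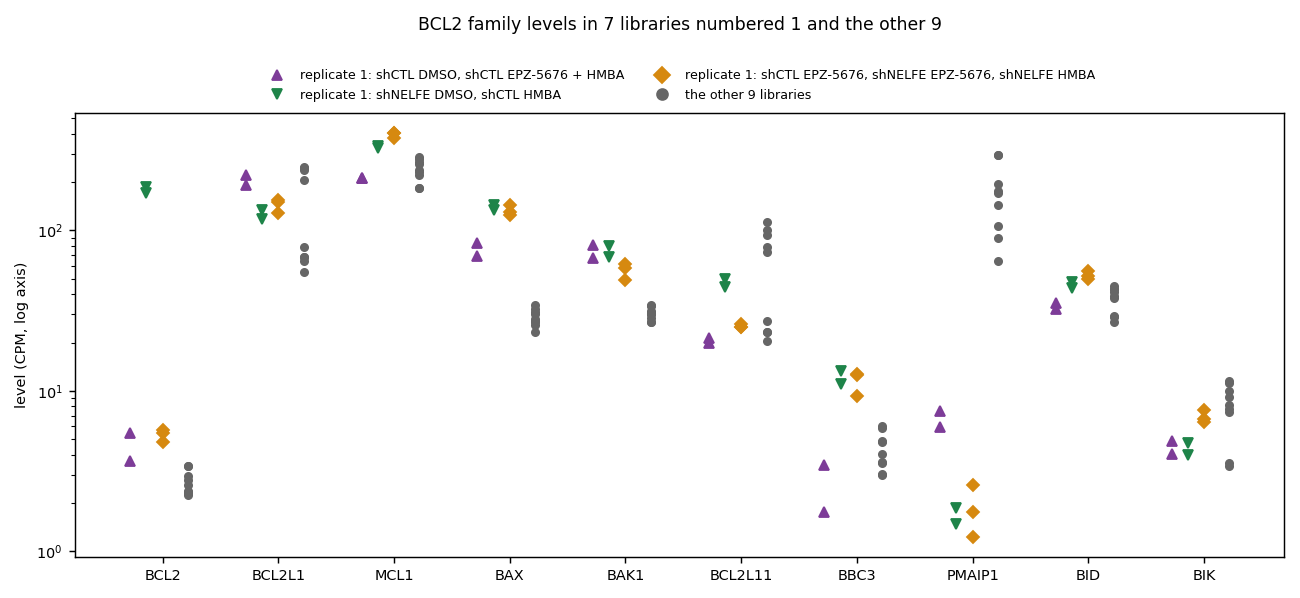
Level of each member (y axis, CPM, log scale) in the 7 libraries numbered 1 that stand apart, by the 3 profiles they form (triangles and diamonds), and in the other 9 libraries (grey circles). PMAIP1 is lower and BAX and BAK1 are higher in all 7 than in any of the 9, and BCL2 is high in the profile of shNELFE DMSO and shCTL HMBA.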

How the data were processed

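The authors deposited raw read counts by gene, covering all 16 libraries, and these were used unchanged. Libraries were of oligo(dT)-selected RNA, made with a stranded TruSeq kit per the labels' protocols. Per the submitters' processing notes, the tools included HTSeq 0.6.1p1, STAR 2.4.0b, edgeR and Cufflinks 2.1.1, on the hg38 build, without their roles. Neither the annotation nor the strand setting of counting is given in the sources used here. Counts of reads over a gene cannot separate its isoforms or an overlapping gene, and depth (13428893 to 17867037 counts in the 9 libraries used) limits the precision of the rarest members. Coordinates and exon lengths are from GENCODE release 29 (hg38), which positioned 58503 of 60676 identifiers.

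Samples were grouped by their titles. edgeR 4.0.16 in R 4.3.3 was fitted to the 9 libraries, each factor (HMBA, EPZ-5676, shRNA) entering as an additive term, with 5 residual degrees of freedom. Among the 9, only shNELFE EPZ-5676 + HMBA has 2 libraries. Most of these degrees of freedom thus measure departures from additive effects, not spread between libraries of the same group. TMM scaling, filterByExpr, the quasi-likelihood F-test and Benjamini-Hochberg adjustment at 0.05 over 14912 genes were used, and each product term was added alone. An SE is the size of the log2 fold change divided by the root of F. CPM are on totals TMM-scaled over the 9, or over all 16 where that is said. Profiles join libraries whose r reached 0.96. The code was tested on simulated data. Alternatives were RLE scaling, unscaled totals, no filter, DESeq2 1.42.0, limma-voom (limma 3.58.1), the replicate number as a block, all 16 libraries, and leaving out each of the 9.

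The members, gene lists, marker lists, motifs and libraries were chosen with earlier results of these data known. All members are named, with NELFE, HEXIM1, CDKN1A and MDM2. Per list and effect, up to 2 genes with the smallest p among those called were added, and the 3 genes with the highest r with the member of smallest p for each effect. MIR4435-2HG was added for its overlap after its values were seen. Sequences are from RefSeq's promoter table. Results for some genes are not reported here.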

Additional observations from a re-analysis of the deposited data

How the results depend on the processing

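The members' 3 effects were compared over RLE scaling, unscaled totals, no filter, DESeq2, limma-voom and the block on the 9 libraries. Of these values, 168 of 180 kept their side of the threshold, and their direction where called. When 1 library was left out, 249 of 270 did. Values called in neither setting could change sign, as did 83 of 731 over all settings, product terms and the fits of 16 libraries included. BAK1 for HMBA reversed on unscaled totals to -0.26. PMAIP1 passed for shNELFE without a filter (0.56, edgeR adjusted p = 0.00296), as did BIK (0.66, edgeR adjusted p = 0.0337), and BCL2 for HMBA did not without a filter (edgeR adjusted p = 0.0832) or with DESeq2 (DESeq2 adjusted p = 0.123).

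With all 16 libraries, with or without the block, 0 genes were called for HMBA, 0 for shNELFE, 0 for EPZ-5676 and 0 for the difference of HMBA with shNELFE, and 7 of 7 HMBA calls of members were lost; the biological coefficient of variation was 0.857 in the 16 and 0.135 in the 9. Without a filter, edgeR called 767 genes for shNELFE, 248 for EPZ-5676, 75 for the difference of HMBA with shNELFE, 5 for that with EPZ-5676 and 4 for EPZ-5676 with shNELFE. DESeq2 called 919, 235, 23, 1 and 3 in the same order. Leaving out 1 of the 9 gave 66 to 1940 genes for shNELFE, 1 to 563 for EPZ-5676, 0 to 36 for HMBA with shNELFE and 0 to 5 for HMBA with EPZ-5676. Without replicate 1 of shNELFE EPZ-5676 + HMBA the biological coefficient of variation was 0.0811. It was 0.127 to 0.146 when any other of the 9 was left out. The cause of the shifts in these counts was not tested. On unscaled totals 30.2% of HMBA calls were higher, against 49.3% with TMM.

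Same-numbered libraries deviated together with an r over 0.1 in 25 of 28 pairs of groups (0.0839 to 0.959). The numbers were taken to pair libraries only if every pair of groups passed 0.1, which was not met, and 7 of the 8 libraries numbered 1 are those that stand apart. The replicate block on the 9 removes the lone library numbered 1. It called 1945 genes for shNELFE, 571 for EPZ-5676, 36 for HMBA with shNELFE and 5 for HMBA with EPZ-5676, and among members PMAIP1 (0.62) and BCL2L11 (0.22) for shNELFE and BCL2L11 (0.28) for EPZ-5676. Members with few reads, BCL2 and BBC3, are limited by depth.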
